A study of Mus musculus with 28 samples.

Results

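The genes described here are 10 transcripts of the ATF4 stress response, namely Atf4, Atf5, Atf3, Ddit3, Ddit4, Trib3, Chac1, Asns, Sesn2 and Nupr1, of 18194 genes that a probe set of the array names alone. Each gene was followed through its brightest probe set, the one with the highest mean over the 28 arrays, such as 1426065_a_at for Trib3, 1451382_at for Chac1, 1425927_a_at for Atf5 and 1419665_a_at for Nupr1. The list was drawn up with earlier results of these arrays known, among them the falls of Trib3, Chac1, Atf5 and Nupr1 in CD4 cells with vorinostat at 2 µM. For those 4 genes, every comparison that uses the CD4 vorinostat 2 µM arrays is therefore given as a description, with no test. The other CD4 drug comparisons share the same CD4 control arrays with it. So do the comparison of the CD8 with the CD4 control and those of the CD8 with the CD4 responses.

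ATF4 is a transcription factor whose messenger RNA is translated more when kinases phosphorylate the initiation factor eIF2α, as happens in amino acid shortage, unfolded protein load, haem shortage or viral infection. Much of its control is at translation, so the level of the Atf4 transcript is not a reading of ATF4 protein. ATF4 pairs with C/EBP and other bZIP proteins and binds C/EBP-ATF response elements near genes for amino acid synthesis and uptake, tRNA charging and redox balance, and near genes of further stress factors such as Ddit3 (CHOP), Atf3, Atf5 and Trib3. Activated T cells use this pathway to match amino acid supply to growth.

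The series followed gene expression in T cells given romidepsin or vorinostat, inhibitors of histone deacetylases, which strip acetyl marks off lysines of histones and of many further proteins. CD4 and CD8 T cells were isolated from mouse spleen by negative selection and stimulated for 2 days with antibodies to CD3 and CD28. The cells then received drug for 1 day, and total RNA was hybridised to the Mouse430_2 array. The CD8 groups and the CD4 groups each comprised romidepsin at 2, 10 and 30 nM, vorinostat at 0.5, 2 and 10 µM, and a stimulated control. Every group, the controls included, was stimulated, and no resting cells are among the arrays. Each of the 14 groups had 2 arrays. The labels do not say whether these came from separate mice, nor do they give the strain or age of the mice. By the sex-linked transcripts given below, the 2 arrays of each group held RNA of different sex. The p-values measure the spread between these arrays, which includes that difference.

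Values are log2 probe set signals, and where a pair of values is given the array of replicate 1 precedes that of replicate 2. A level is comparable between arrays for one probe set and not between probe sets. A signal at or under 4.27, which is 2 log2 units above the most common value of the table, was read as not detected. Differences were fitted with limma over all 28 arrays, and a change was called at a Benjamini-Hochberg adjusted p under 0.05 over the 9872 genes over that level in at least 2 arrays. All 10 genes passed this filter. Nupr1 passed it through 6 CD4 arrays only, those of the control, romidepsin 2 nM and vorinostat 0.5 µM, so its fall at higher doses is partly a consequence of the filter. Its values are therefore given as a description with no test, and counts and medians over the list leave it out. A second fit took out the difference between the replicate 1 and replicate 2 arrays of each cell type, and is called the replicate block.

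The RNA of the replicate 1 and replicate 2 arrays came from different sources, of different sex. Every replicate 1 array had the Y-linked Eif2s3y at 11.36 to 12.02 and every replicate 2 array had it at 2.25, while Xist was at 11.69 to 12.72 in the replicate 2 arrays and at 2.27 in the replicate 1 arrays. The defining marker Cd8a was at 9.34 or more in each CD8 array and at 6.07 or less in each CD4 array. Cd8b1 was at 9.94 or more in the CD8 arrays and at 5.32 to 8.28 in the CD4 arrays, over the detection level there too. Cd4 was at or under 2.34 in the CD8 arrays. In the CD4 arrays Cd4 was under the detection level in both arrays of romidepsin 30 nM (2.75 and 4.14) and in the replicate 1 array of vorinostat 10 µM (2.39), against 8.55 and 8.02 in the control arrays, so that gene cannot check the label of those arrays. The 3′ minus 5′ signal of the β-actin control probes, a measure of RNA integrity, also moved with dose. In CD4 cells it was 1.55 and 0.97 at the top dose of romidepsin and 1.62 and 1.09 at that of vorinostat, against 0.94 and 0.78 in the control. In CD8 cells it was 1.23 and 0.90 and 1.43 and 1.16 at the same doses, against 0.86 and 0.79 in the control. The same measure of the Gapdh control probes moved less and not in 1 direction. In CD4 cells it was 0.24 and 0.09 and 0.34 and 0.08 at these doses, against 0.20 and 0.16 in the control. In CD8 cells it was 0.18 and 0.07 and 0.26 and 0.13, against 0.195 and 0.08. The 5 measured B cell markers summed to 12.6 and 16.9 with romidepsin at 30 nM and to 12.1 and 18.2 with vorinostat at 10 µM in CD4 cells, against 15.8 and 29.0 in the control. Of these 5, Cd79b and Ms4a1 were detected in at least 1 array at either dose and Cd79a, Cd79b, Ms4a1 and Blk in the control. The sum of the 4 T cell markers was lower with drug as well, at 37.1 and 42.1 and at 38.4 and 41.3, against 46.0 and 47.5. Natural killer and erythroid markers were at or close to the lowest value of the table in these groups. The 7 myeloid markers, of which Cd68 and Fcgr3 were detected, summed to 22.22 and 24.51 with romidepsin at 30 nM in CD4 cells. With vorinostat at 10 µM they summed to 21.88 and 23.81, against 26.44 and 27.98 in the control. In CD8 cells the sums were 22.34 and 24.69 and 22.696 and 23.67 at these doses, against 20.92 and 24.48 in the control. The part of RNA integrity and of cell composition in the changes below was not tested, and in bulk RNA fewer cells of a type and less RNA per cell cannot be told apart.

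The promoters of 5 of the 10 genes hold a match to the C/EBP-ATF response element, and they are shown because the members that fell together in CD4 cells can be read against them. The element was searched as TGATGNAA on both strands, where N is any base, in the RefSeq promoter windows of build GRCm38.p6, from 250 bases before a gene's start. All 10 symbols were found there, Atf5 with 2 start sites. Each sequence is printed 5′ to 3′ on the gene's own strand to 30 bases past the start, with the match in capitals. Trib3 lies at chr2:152344031-152344310 on the minus strand, Chac1 at chr2:119350992-119351271 on the plus strand and Nupr1 at chr7:126625441-126625720 on the minus strand. Asns lies at chr6:7693180-7693459 and Atf3 at chr1:191183304-191183583, both on the minus strand.
Trib3: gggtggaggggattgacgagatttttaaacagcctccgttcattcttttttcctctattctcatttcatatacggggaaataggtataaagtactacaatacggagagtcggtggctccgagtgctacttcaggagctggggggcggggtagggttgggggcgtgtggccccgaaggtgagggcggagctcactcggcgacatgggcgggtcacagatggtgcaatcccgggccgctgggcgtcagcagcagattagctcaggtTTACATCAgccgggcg
Chac1: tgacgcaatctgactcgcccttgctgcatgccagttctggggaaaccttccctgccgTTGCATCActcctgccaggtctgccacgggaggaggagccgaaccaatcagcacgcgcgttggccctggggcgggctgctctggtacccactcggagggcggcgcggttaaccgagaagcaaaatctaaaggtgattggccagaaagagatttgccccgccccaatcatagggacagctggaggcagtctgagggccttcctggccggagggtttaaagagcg
Nupr1: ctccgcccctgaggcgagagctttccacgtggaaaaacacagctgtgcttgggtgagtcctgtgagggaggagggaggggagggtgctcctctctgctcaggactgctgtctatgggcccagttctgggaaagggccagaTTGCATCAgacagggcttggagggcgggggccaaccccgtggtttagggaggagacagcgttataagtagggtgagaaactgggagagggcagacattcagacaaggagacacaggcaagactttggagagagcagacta
Asns: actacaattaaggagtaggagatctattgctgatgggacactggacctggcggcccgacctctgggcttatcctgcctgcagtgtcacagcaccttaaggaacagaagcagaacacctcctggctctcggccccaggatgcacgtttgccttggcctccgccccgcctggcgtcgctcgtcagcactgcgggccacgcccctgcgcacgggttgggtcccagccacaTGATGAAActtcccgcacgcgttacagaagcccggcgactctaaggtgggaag
Atf3: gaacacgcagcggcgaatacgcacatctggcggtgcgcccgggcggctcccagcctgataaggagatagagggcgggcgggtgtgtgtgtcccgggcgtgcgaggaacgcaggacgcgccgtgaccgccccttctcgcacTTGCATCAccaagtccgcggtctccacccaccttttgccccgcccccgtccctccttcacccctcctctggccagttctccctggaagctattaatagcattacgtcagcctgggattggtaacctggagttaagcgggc

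The match of Trib3 covers bases 15 to 22 after the start. That of Chac1 covers bases -193 to -186, those of Nupr1 and Atf3 cover bases -110 to -103, and that of Asns covers bases -23 to -16, all counted from the gene's start, whose first base is 1. The window searched was 300 bases long, and 1304 of the 32851 windows given for all genes hold the element, which is 3.969%. The windows of Atf4, Atf5, Ddit3, Ddit4 and Sesn2 hold no match. The cAMP response element TGACGTCA is in 1.79% of windows and the endoplasmic reticulum stress response element in 0.119%, and no member's window holds either. A match of letters is no evidence of binding, and the members with a match did not move in 1 direction, as the values below show.

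Trib3, a pseudokinase that binds AKT and ATF4 and damps both, fell in CD4 cells with both drugs. In CD4 cells with romidepsin it stood at 7.20 and 7.60 at 2 nM, at 5.10 and 5.77 at 10 nM and at 5.19 and 4.96 at 30 nM, against 8.30 and 7.88 in the control. With vorinostat it stood at 6.96 and 7.09 at 0.5 µM, at 5.19 and 5.70 at 2 µM and at 5.19 and 5.05 at 10 µM. All 12 drug arrays lay under both control arrays, and the arrays of the middle and top doses lay under those of the lowest dose of the same drug. The fitted differences were -2.65 ± 0.30 (SE, n = 2 each) at romidepsin 10 nM, -3.02 ± 0.30 at 30 nM and -2.97 ± 0.30 at vorinostat 10 µM, which are falls of 6.3, 8.09 and 7.83 times. Their adjusted p were 5.14e-05, 5.8e-06 and 9.95e-06 by limma. The differences at romidepsin 2 nM (-0.69 ± 0.30, adjusted p = 1) and vorinostat 0.5 µM (-1.07 ± 0.30, adjusted p = 1) were not called. The step from 2 to 10 nM romidepsin was itself called, at -1.96 ± 0.30 (adjusted p = 0.00181), and without the replicate 1 array of 10 nM it was -1.63 with an adjusted p of 0.0506.

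Chac1, an enzyme that cleaves glutathione, followed Trib3. In CD4 cells it was at 5.96 and 6.08, at 4.89 and 5.19 and at 4.75 and 5.04 with romidepsin at 2, 10 and 30 nM, compared with 7.01 and 6.74 in the control. With vorinostat at 0.5, 2 and 10 µM it was at 6.05 and 6.32, at 4.89 and 5.38 and at 5.01 and 5.11. No drug array reached the control arrays, and at the middle and top doses the signal was little above the detection level. The falls were 1.84, 1.98 and 1.82 on the log2 scale at romidepsin 10 nM, 30 nM and vorinostat 10 µM (fitted differences -1.84, -1.98 and -1.82, SE 0.22 each), with adjusted p of 7.43e-05, 1.24e-05 and 4.05e-05. At romidepsin 2 nM the difference of -0.85 ± 0.22 was called with the replicate block only (adjusted p = 0.0311, against 0.645 without it). The step from 2 to 10 nM was called at -0.99 ± 0.22 (adjusted p = 0.0184). That call ended without the replicate 1 array of 10 nM (-0.84, adjusted p = 0.264) and without either array of 2 nM (-1.05 without replicate 1 and -0.93 without replicate 2, adjusted p = 0.0968 and 0.102).

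Atf5, a bZIP factor that is both a relative and a target of ATF4 and acts in the mitochondrial stress response, changed by a similar amount. Its CD4 values were 6.86 and 7.71 at romidepsin 2 nM, 5.33 and 6.41 at 10 nM and 5.13 and 5.59 at 30 nM, against 7.86 and 8.002 in the control. Vorinostat gave 6.99 and 7.25 at 0.5 µM, 5.40 and 6.17 at 2 µM and 5.29 and 5.20 at 10 µM. Every drug array was again under both control arrays, with a wider gap between replicates than for Trib3 at romidepsin 2 and 10 nM. The differences were -2.06 ± 0.39 at romidepsin 10 nM (adjusted p = 0.00324), -2.57 ± 0.39 at 30 nM (adjusted p = 0.000209) and -2.69 ± 0.39 at vorinostat 10 µM (adjusted p = 0.000207). The first of these lost its call without the replicate 1 array of romidepsin 10 nM, at -1.52 with an adjusted p of 0.0812.

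Nupr1, a small stress-induced nuclear protein, was detected in CD4 cells only without drug and at the lowest doses. Its CD4 values were 5.84 and 5.64 with romidepsin at 2 nM, 2.31 and 2.90 at 10 nM and 2.29 and 2.34 at 30 nM, against 5.96 and 5.58 in the control. With vorinostat they were 4.41 and 4.82 at 0.5 µM, 2.29 and 2.50 at 2 µM and 2.28 and 2.28 at 10 µM. Both arrays of romidepsin 2 nM lay between the control arrays, while every array of the middle and top doses of either drug was undetected. Nupr1 was at least 2.83-fold lower than in the control at romidepsin 10 nM, 30 nM and vorinostat 10 µM, a bound that compares the control mean with the detection level.

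With vorinostat at 2 µM in CD4 cells, the arrays on which these 4 genes were picked, the differences to the control were -2.65 for Trib3, -1.75 for Chac1 and -2.15 for Atf5, and Nupr1 was undetected. They stand here without a test.

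**Figure D1:**
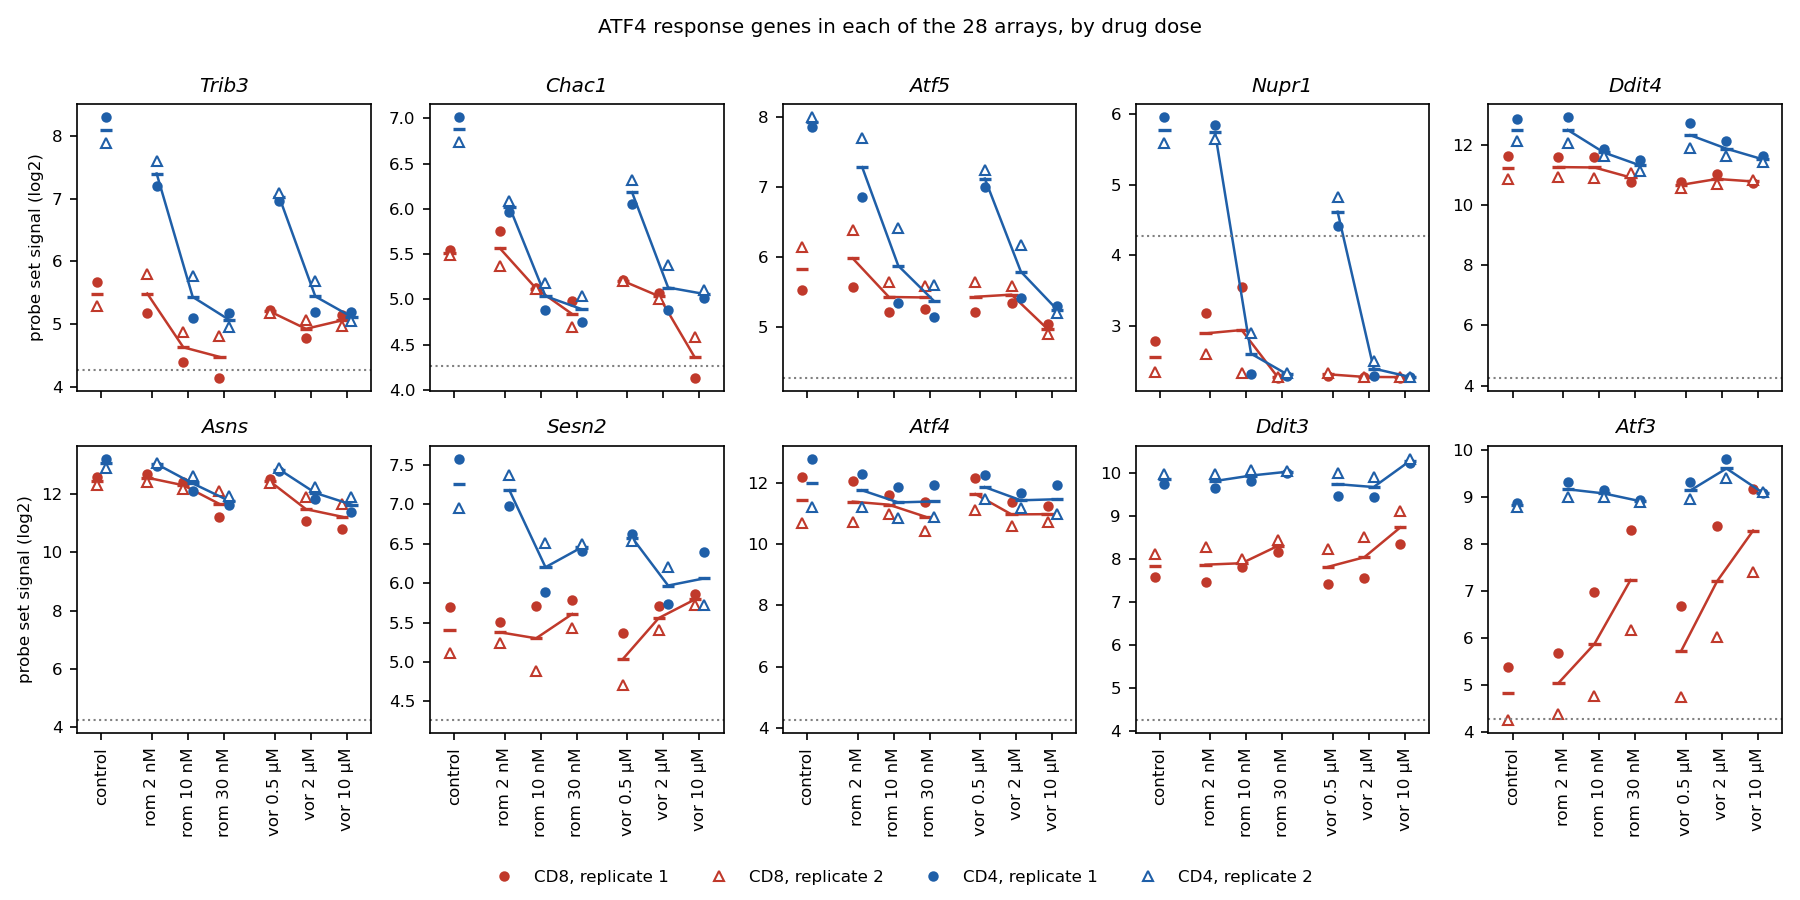
Log2 probe set signal (vertical axes, each panel with its own range) of the 10 genes in the control and at each dose of romidepsin (rom) and vorinostat (vor). Circles are replicate 1 arrays, triangles replicate 2 arrays, short bars the mean of both, lines join the doses of 1 drug, and the dotted line is the detection level of 4.27. In CD4 cells (blue) Trib3, Chac1, Atf5 and Nupr1 drop to the range of the CD8 cells (red) at the middle and top doses, while Atf3 climbs in CD8 cells.

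Asns, Sesn2 and Ddit4 had smaller fitted differences. Asns, which makes asparagine and is a standard ATF4 target, was at 11.60 and 11.93 with romidepsin at 30 nM and at 11.38 and 11.88 with vorinostat at 10 µM in CD4 cells, against 13.19 and 12.89 in the control. Both groups lay wholly under the control, with differences of -1.28 ± 0.34 (adjusted p = 0.0137) and -1.41 ± 0.34 (adjusted p = 0.00838). Both calls held with the replicate block, and that for vorinostat ended at equal array medians. Some fits that left out 1 array ended the calls while the difference stayed negative. Such fits leave 1 array in a group and are less precise. For romidepsin the difference was -1.12 (adjusted p = 0.114) without the drug's replicate 1 array and -1.13 (adjusted p = 0.111) without the control's. For vorinostat it was -1.17 (adjusted p = 0.101) without the drug's replicate 1 array and -1.26 (adjusted p = 0.083) without the control's.

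Sesn2, a leucine sensor that restrains mTORC1, was at 6.39 and 5.73 with vorinostat at 10 µM, compared with 7.58 and 6.95 in the control, a difference of -1.20 ± 0.35 (adjusted p = 0.0236). Without the control's replicate 1 array it was -0.89 (adjusted p = 0.221), and without the drug's replicate 2 array -0.87 (adjusted p = 0.202). The call at vorinostat 10 µM also ended with quantile normalization and at equal array medians. At romidepsin 10 nM (5.89 and 6.51, difference -1.06 ± 0.35, adjusted p = 0.0723) and 30 nM (6.41 and 6.50, difference -0.81 ± 0.35, adjusted p = 0.118) Sesn2 was called with the replicate block only, where the adjusted p were 0.00421 and 0.0146.

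Ddit4 (REDD1), another inhibitor of mTORC1, was at 11.49 and 11.14 with romidepsin at 30 nM, compared with 12.86 and 12.12 in the control, a difference of -1.17 ± 0.39 (adjusted p = 0.0397). The call ended without either romidepsin array (-1.35 without replicate 1 and -1.002 without replicate 2, adjusted p = 0.0878 and 0.192) and without the replicate 1 control array (-0.81, adjusted p = 0.311). The same call ended with quantile normalization, at equal array medians, with no filter on low signals and with arrays of 1 cell type only. At vorinostat 10 µM the values were 11.62 and 11.41, and the difference of -0.97 ± 0.39 was not called (adjusted p = 0.0963, and 0.00219 with the replicate block).

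The Atf4 transcript itself was not called at any dose in either cell type without the block. It was at 11.85 and 10.86 with romidepsin at 10 nM, at 11.91 and 10.87 at 30 nM and at 11.93 and 10.98 with vorinostat at 10 µM in CD4 cells, against 12.77 and 11.19 in the control. The gap between the replicate arrays was larger than the gap between groups, so the groups overlapped, although within each replicate number the drug array was the lower one. The differences of -0.63, -0.60 and -0.52 (SE 0.69 each) had adjusted p of 0.771, 0.652 and 0.724. With the replicate block the first 2 were called, at adjusted p of 0.0341 and 0.0337, and the third was not (0.0591).

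Ddit3 (CHOP), a pro-apoptotic bZIP factor, and Atf3, a bZIP factor induced by many stresses, were not called at any dose in CD4 cells without the block. Ddit3 was at 10.01 and 10.06 with romidepsin at 30 nM and at 10.24 and 10.33 with vorinostat at 10 µM, compared with 9.75 and 9.97 in the control. Its differences of 0.17 and 0.42 (SE 0.37 each) had adjusted p of 0.852 and 0.541, and the second was called with the replicate block (0.0425). The smaller of the 2 was -0.03 when arrays were set to equal medians. Atf3 was at 8.94 and 8.89 and at 9.09 and 9.10 in the same groups, against 8.88 and 8.80 in the control, with differences of 0.08 and 0.26 (SE 0.90 each, adjusted p = 0.993 and 0.935), the first of which turned to -0.13 at equal array medians. At vorinostat 2 µM Atf3 was at 9.81 and 9.41, a difference of 0.77 ± 0.90 that was called with the replicate block only (adjusted p = 0.0233, against 1 without it).

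Over the 9 genes other than Nupr1, 3 were called lower in CD4 cells at romidepsin 10 nM and 0 higher, beside 2.32% of all tested genes called lower there. At romidepsin 30 nM it was 5 of 9 lower (background 7.91%) and at vorinostat 10 µM 5 of 9 lower (background 7.10%). Trib3, Chac1 and Atf5 were 3 of the genes called at each of these doses, and they were picked on a comparison with the same control arrays. The median differences of the 9 genes were -0.75, -1.17 and -1.20, against 0.02, 0.07 and 0.02 over all tested genes. At vorinostat 2 µM 0 of the 6 genes not picked on those arrays were called, beside a background of 1.42% in either direction. Asns (-1.01 ± 0.34) and Sesn2 (-1.29 ± 0.35) had an unadjusted p under 0.05 there, beside 9.45% of all tested genes. Both were called lower with the replicate block. At the lowest doses, romidepsin 2 nM and vorinostat 0.5 µM, 0 of 9 were called by limma (backgrounds 0.0304% and 0.0101%). In each, 2 genes had an unadjusted p under 0.05, beside 1.61% and 1.11% of all tested genes. The replicate block called 6, 7 and 7 of 9 at romidepsin 10 nM, 30 nM and vorinostat 10 µM, beside 48.2%, 63.7% and 61.2% of all genes, so its background was far higher too. At vorinostat 2 µM it called 3 of the 6 (background 28.3%), at romidepsin 2 nM 1 of 9 (background 0.922%) and at vorinostat 0.5 µM 0 of 9 (background 0.253%). The step from 2 to 10 nM romidepsin was called for 2 genes, Trib3 and Chac1, both lower (background 1.01%), and for 5 with the block (background 40.0%). With the block, the step from 2 to 10 µM vorinostat was called for 1 of the 6 unpicked genes in CD4 cells (background 43.7%).

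**Figure D2:**
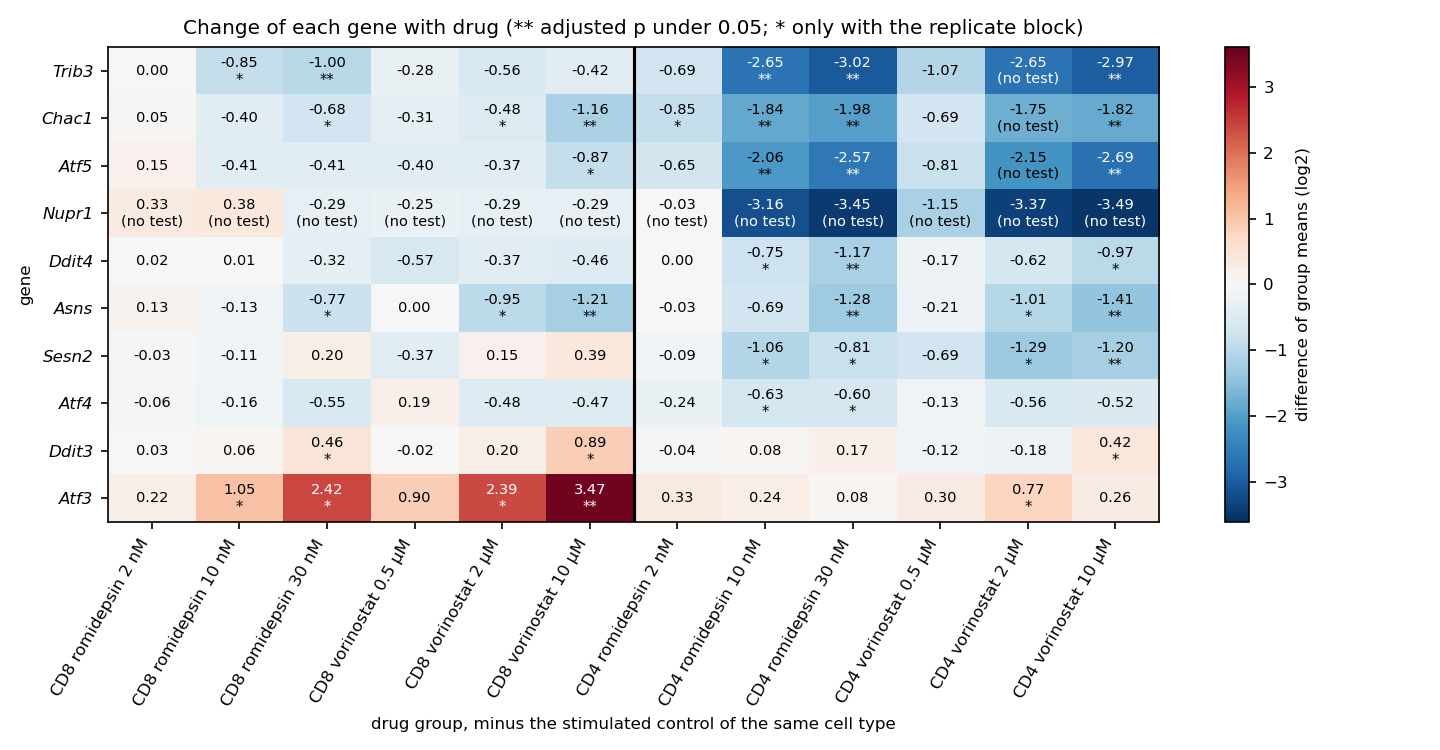
Fitted log2 difference of each gene (rows) between a drug group and the stimulated control of its cell type (columns, CD8 left and CD4 right of the black line). Red is higher and blue lower with drug, 2 asterisks mark an adjusted p under 0.05, 1 asterisk a call with the replicate block only, and Nupr1 and the values on which genes were picked carry no test. The 4 upper rows are darkest blue in the CD4 middle and top doses, to -3.49 for Nupr1, and the Atf3 row is red in CD8 cells, to 3.47.

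In CD8 cells the largest fitted change of a member was a rise, that of Atf3. It was at 5.69 and 4.39, at 6.98 and 4.76 and at 8.29 and 6.18 with romidepsin at 2, 10 and 30 nM, compared with 5.38 and 4.26 in the CD8 control. With vorinostat at 0.5, 2 and 10 µM it was at 6.69 and 4.74, at 8.39 and 6.03 and at 9.17 and 7.40. Within each replicate number the signal was higher at each higher dose of either drug, and the replicate 1 arrays were the higher ones throughout. The difference was called at vorinostat 10 µM (3.47 ± 0.90, adjusted p = 0.0115), with 1 of the 2 control arrays over the detection level. That call ended without the drug's replicate 1 array (2.59, adjusted p = 0.144) and without the control's replicate 2 array (2.91, adjusted p = 0.0981). At romidepsin 30 nM (2.42 ± 0.90, adjusted p = 0.104) and vorinostat 2 µM (2.39 ± 0.90, adjusted p = 0.21) it was called with the replicate block only, where the adjusted p were 2.26e-06 and 8.52e-06. The block also called the Atf3 steps from 10 to 30 nM romidepsin, from 0.5 to 2 µM vorinostat and from 2 to 10 µM vorinostat (1.36, 1.49 and 1.08, adjusted p = 0.00286, 0.00226 and 0.00223), none of which was called without it. The block called 20.8%, 12.5% and 41.4% of all genes in these 3 steps.

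Chac1 and Asns fell in CD8 cells at vorinostat 10 µM. Chac1 was at 4.14 and 4.58 there, with the replicate 1 array undetected, against 5.54 and 5.49 in the control (-1.16 ± 0.22, adjusted p = 0.00142). The Chac1 call ended with quantile normalization and at equal array medians. Asns was at 10.79 and 11.63, against 12.56 and 12.29 (-1.21 ± 0.34, adjusted p = 0.0193). The Asns call ended without the drug's replicate 1 array (-0.79, adjusted p = 0.242) and without the control's (-1.07, adjusted p = 0.131).

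Trib3 was at 4.15 and 4.81 with romidepsin at 30 nM in CD8 cells, against 5.68 and 5.29 in the control (-1.003 ± 0.30, adjusted p = 0.0429). Its call ended without the drug's replicate 1 array (-0.67, adjusted p = 0.418) and without either control array (-0.81 without replicate 1 and -1.20 without replicate 2, adjusted p = 0.298 and 0.0681). At vorinostat 10 µM Trib3 was at 5.15 and 4.98 and was not called (-0.42 ± 0.30, adjusted p = 0.394). Atf5 was at 5.03 and 4.90 at that dose, against 5.52 and 6.14 (-0.87 ± 0.39, adjusted p = 0.137, and 0.00565 with the block). Ddit3 was at 8.36 and 9.12 at vorinostat 10 µM, against 7.58 and 8.11 in the control, and was called with the block only (0.89 ± 0.37, adjusted p = 0.108, and 0.000315 with the block). Sesn2 (5.86 and 5.73, against 5.69 and 5.12) and Ddit4 (10.73 and 10.83, against 11.62 and 10.85) were called neither way at that dose, at 0.39 ± 0.35 and -0.46 ± 0.39. Nupr1 was not detected in any of the 14 CD8 arrays, the highest of which read 3.54, so a fall could not have been measured.

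Counted over the 9 genes other than Nupr1, 1 was called lower in CD8 cells at romidepsin 30 nM (background 2.93%). At vorinostat 10 µM it was 2 lower (background 8.50%) and 1 higher (background 12.1%), and without the drug's replicate 1 array Chac1 alone kept its call there. The other CD8 doses had 0 calls, beside backgrounds in either direction of 1.12% at romidepsin 10 nM, 3.30% at vorinostat 2 µM and 0 at both lowest doses. These 4 groups are, in order, romidepsin 10 nM, vorinostat 2 µM, romidepsin 2 nM and vorinostat 0.5 µM. By unadjusted p under 0.05 their counts were 1, 3, 0 and 0 of 9, beside 6.92%, 13.1%, 0.243% and 2.04% of all tested genes. With the replicate block the counts were 2, 3, 0 and 0, beside 17.2%, 36.8%, 0 and 1.13% of all genes. At romidepsin 30 nM and vorinostat 10 µM the block called 5 members each, beside 52.4% and 64.0% of all genes.

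Without drug, CD8 cells held less of most of these transcripts than CD4 cells. Atf3 was at 5.38 and 4.26 in CD8 control cells and at 8.88 and 8.80 in CD4 control cells (-4.02 ± 0.90, adjusted p = 0.011). Ddit3 was at 7.58 and 8.11 in CD8 cells and at 9.75 and 9.97 in CD4 cells (-2.02 ± 0.37, adjusted p = 0.00277). Trib3 differed by -2.61 ± 0.30 (adjusted p = 3.3e-05), Atf5 by -2.10 ± 0.39 (adjusted p = 0.00276), Sesn2 by -1.86 ± 0.35 (adjusted p = 0.00288) and Chac1 by -1.36 ± 0.22 (adjusted p = 0.00073). Nupr1 was at least 2.83-fold lower in CD8 cells, where it was undetected. Atf4 (-0.54 ± 0.69, adjusted p = 0.952), Asns (-0.62 ± 0.34, adjusted p = 0.465) and Ddit4 (-1.25 ± 0.39, adjusted p = 0.0708) were not called, and Ddit4 was called with the block (adjusted p = 0.000683), which called 37.5% of all genes. Of the 9 genes other than Nupr1, 6 were called lower in CD8 cells, beside 3.80% of all tested genes, and 0 higher. Trib3, Chac1 and Atf5 are among these 6, and they were picked on a comparison with the same CD4 control arrays.

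The control calls of Chac1 and Sesn2 ended with quantile normalization and at equal array medians, and that of Atf3 at equal array medians. That of Trib3 ended with the mean of its probe sets and with its next brightest probe set (-2.68, limma adjusted p = 0.428). On its next brightest probe set Ddit3 was not called either (-0.75, limma adjusted p = 0.501). Leaving out 1 control array ended 4 of the 6 calls between the controls. Atf3 was lost without either CD4 array (-3.98 without replicate 1 and -4.06 without replicate 2, adjusted p = 0.0846 and 0.0611) and without the CD8 replicate 2 array (-3.46, adjusted p = 0.124). Sesn2 was lost without the CD4 replicate 1 array (-1.55, adjusted p = 0.0625) and without the CD8 replicate 2 array (-1.57, adjusted p = 0.055). Atf5 and Ddit3 were lost without the CD8 replicate 1 array (-1.79 and -1.75, adjusted p = 0.0536 and 0.0523).

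At the top doses the CD8 and CD4 means of some genes lay close together and those of others apart. At romidepsin 30 nM Atf5 averaged 5.42 in CD8 and 5.36 in CD4 cells, and Chac1 4.84 in CD8 and 4.89 in CD4 cells. At that dose Trib3 averaged 4.48 in CD8 and 5.08 in CD4 cells, and Sesn2 5.61 in CD8 and 6.45 in CD4 cells. At vorinostat 10 µM Trib3 averaged 5.06 in CD8 and 5.12 in CD4 cells. There Chac1 averaged 4.36 in CD8 and 5.06 in CD4 cells, and Ddit4 10.78 in CD8 and 11.52 in CD4 cells. These gaps were not tested. Ddit3 averaged 8.31 in CD8 and 10.04 in CD4 cells at romidepsin 30 nM, and 8.74 in CD8 and 10.28 in CD4 cells at vorinostat 10 µM. Atf3 averaged 8.29 in CD8 and 9.10 in CD4 cells at vorinostat 10 µM, and there the CD8 replicate 1 array (9.17) was level with the CD4 arrays (9.09 and 9.10).

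The difference between the CD8 and the CD4 response was tested directly. Trib3, Chac1 and Atf5 were picked on a comparison that shares the CD4 control arrays with these tests. For Trib3 it was 2.01 ± 0.43 at romidepsin 30 nM (CD8 response -1.003, CD4 response -3.02, adjusted p = 0.0295) and 2.55 ± 0.43 at vorinostat 10 µM (CD8 response -0.42, CD4 response -2.97, adjusted p = 0.00908). For Nupr1 no CD8 response was measured, since every CD8 array was undetected. Of the 9 genes other than Nupr1, 0, 1 and 1 were called by limma at romidepsin 10 nM, 30 nM and vorinostat 10 µM, beside backgrounds of 0.0709%, 1.00% and 0.577% in either direction. By unadjusted p under 0.05 the counts were 3, 3 and 5, beside 5.53%, 7.91% and 5.34% of all tested genes. For Atf3 the difference was 3.21 ± 1.27 at vorinostat 10 µM (adjusted p = 0.648, and 5.83e-05 with the replicate block). The block called 3, 4 and 4 of the 9 in these 3 comparisons, beside 8.40%, 17.6% and 10.7% of all genes. At vorinostat 2 µM it called 1 of the 6 unpicked genes, Atf3, beside 1.45%.

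The Trib3 calls depended on the processing and on single arrays. At both doses the call ended with quantile normalization, at equal array medians, with the mean of its probe sets and with its next brightest probe set. At romidepsin 30 nM the difference ranged from 1.68 to 2.34 over the fits that each left out 1 array and lost its call in 6 of 8, all but those without the CD4 control's replicate 2 array and the CD8 drug group's replicate 1 array. The adjusted p was 0.103 without replicate 1 and 0.101 without replicate 2 of the CD4 drug group, 0.183 without replicate 1 of the CD4 control, 0.185 without replicate 2 of the CD8 drug group, and 0.0598 and 0.154 without replicate 1 and 2 of the CD8 control. At vorinostat 10 µM the call was lost in 4 of 8 fits, without the replicate 1 array of the CD4 control (2.34, adjusted p = 0.0631), of the CD4 drug group (2.62, adjusted p = 0.0553) and of the CD8 drug group (2.46, adjusted p = 0.053), and without the replicate 2 array of the CD8 control (2.36, adjusted p = 0.0512).

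**Figure D3:**
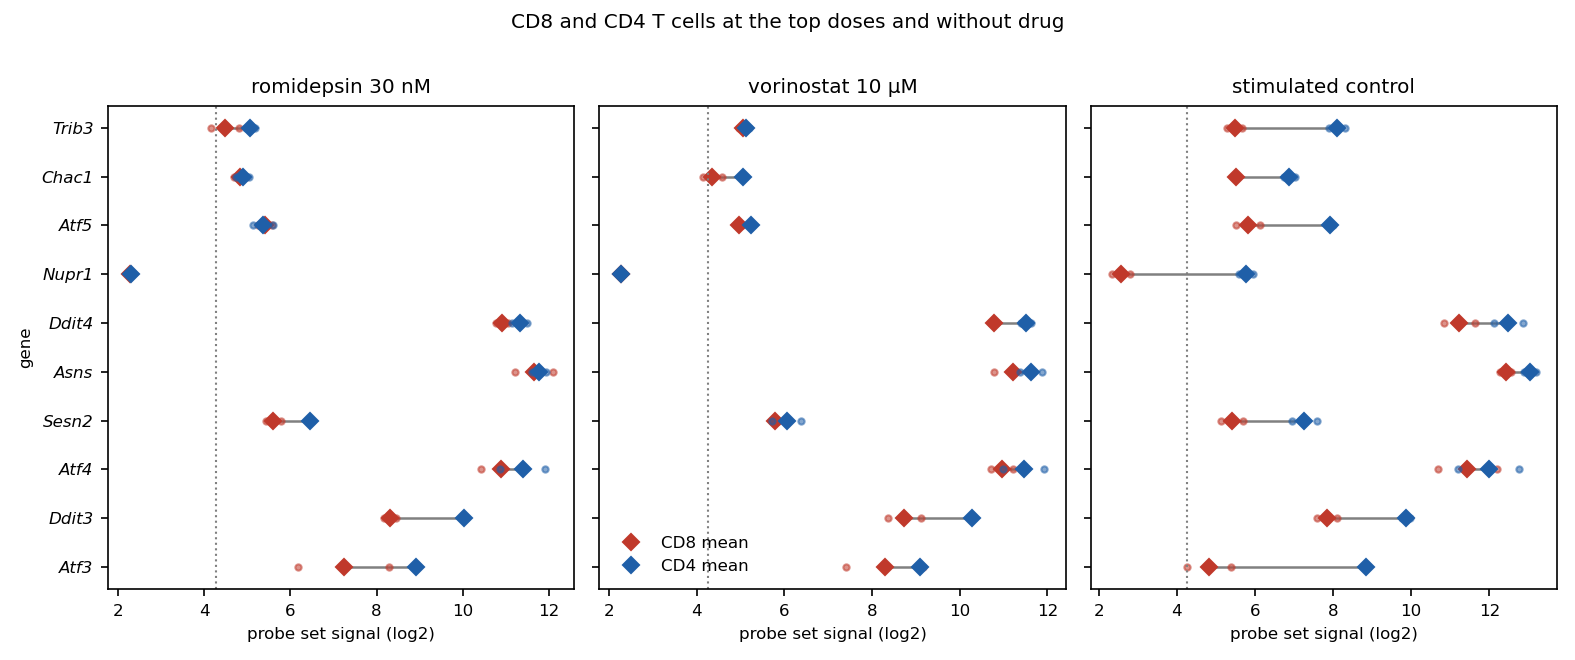
Log2 probe set signal (horizontal axes) of the 10 genes in CD8 (red) and CD4 (blue) T cells with romidepsin at 30 nM, with vorinostat at 10 µM and in the stimulated control. Diamonds are means of 2 arrays, small circles the arrays, grey lines join the cell types, and the dotted line is the detection level. The grey lines of Trib3, Chac1, Atf5 and Nupr1 are shorter at both top doses than in the control, and the Ddit3 line stays long.

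Of the 10 genes, 6 have a second probe set that names them alone, and for Ddit3 it gave another result than the brightest one. On its dimmer probe set 1443897_at Ddit3 was at 8.64 and 6.89 with romidepsin at 30 nM and at 7.79 and 7.12 with vorinostat at 10 µM in CD4 cells, against 5.18 and 4.95 in the control. At romidepsin 10 nM it was at 7.33 and 6.68, while vorinostat at 2 µM left it at 4.93 and 5.65. The differences were 1.94 ± 0.44 at romidepsin 10 nM, 2.70 ± 0.44 at 30 nM and 2.39 ± 0.44 at vorinostat 10 µM (adjusted p = 0.0102, 0.000358 and 0.00119). In CD8 cells it was at 6.48 and 6.91 with vorinostat at 10 µM, compared with 4.33 and 4.29 in the control (2.38 ± 0.44, adjusted p = 0.00114), and at 5.79 and 5.24 with romidepsin at 30 nM (1.202 ± 0.44, adjusted p = 0.0954). The calls at romidepsin 30 nM in CD4 cells and at vorinostat 10 µM in both cell types held in every fit that left out 1 array, and the CD8 difference at 30 nM was called with the block only (adjusted p = 0.02). The call at romidepsin 10 nM ended without either CD4 control array (2.06 without replicate 1 and 1.82 without replicate 2, adjusted p = 0.0627 and 0.063) and without the drug's replicate 1 array (1.62, adjusted p = 0.149). The part of the transcript that each probe set reads is not given in the sources used here, so the disagreement was not resolved, and this probe set was looked at after the data were seen.

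The other second probe sets gave differences of the same sign as the brightest ones in CD4 cells at these doses, and no call that rests on a detected signal. For Trib3 (1456225_x_at) the CD4 arrays were at 2.30 and 4.42 with romidepsin at 30 nM and at 2.27 and 4.12 with vorinostat at 10 µM, compared with 6.27 and 7.48 in the control. The differences of -3.51 and -3.68 (SE 1.42 each) had adjusted p of 0.0959 and 0.0883, since the replicate arrays stood far apart. For Atf4 (1448135_at) they were at 9.93 and 10.44 and at 9.94 and 10.40, against 11.07 and 11.23, so that here the drug groups lay wholly under the control, with differences of -0.96 and -0.98 (SE 0.38 each, adjusted p = 0.0855 and 0.0887). For Nupr1 (1419666_x_at) they were at 2.27 and 2.25 at both doses, against 4.21 and 3.79 in the control, so that it was under the detection level in all 3 groups and measured no change. For Asns and Sesn2 none of the CD4 differences at these doses was called, at -1.40 and -1.41 for Asns and -0.89 and -0.77 for Sesn2. The brightest probe sets of Atf4 and Asns are of the kind marked x_at, which can also bind related transcripts.

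**Figure D4:**
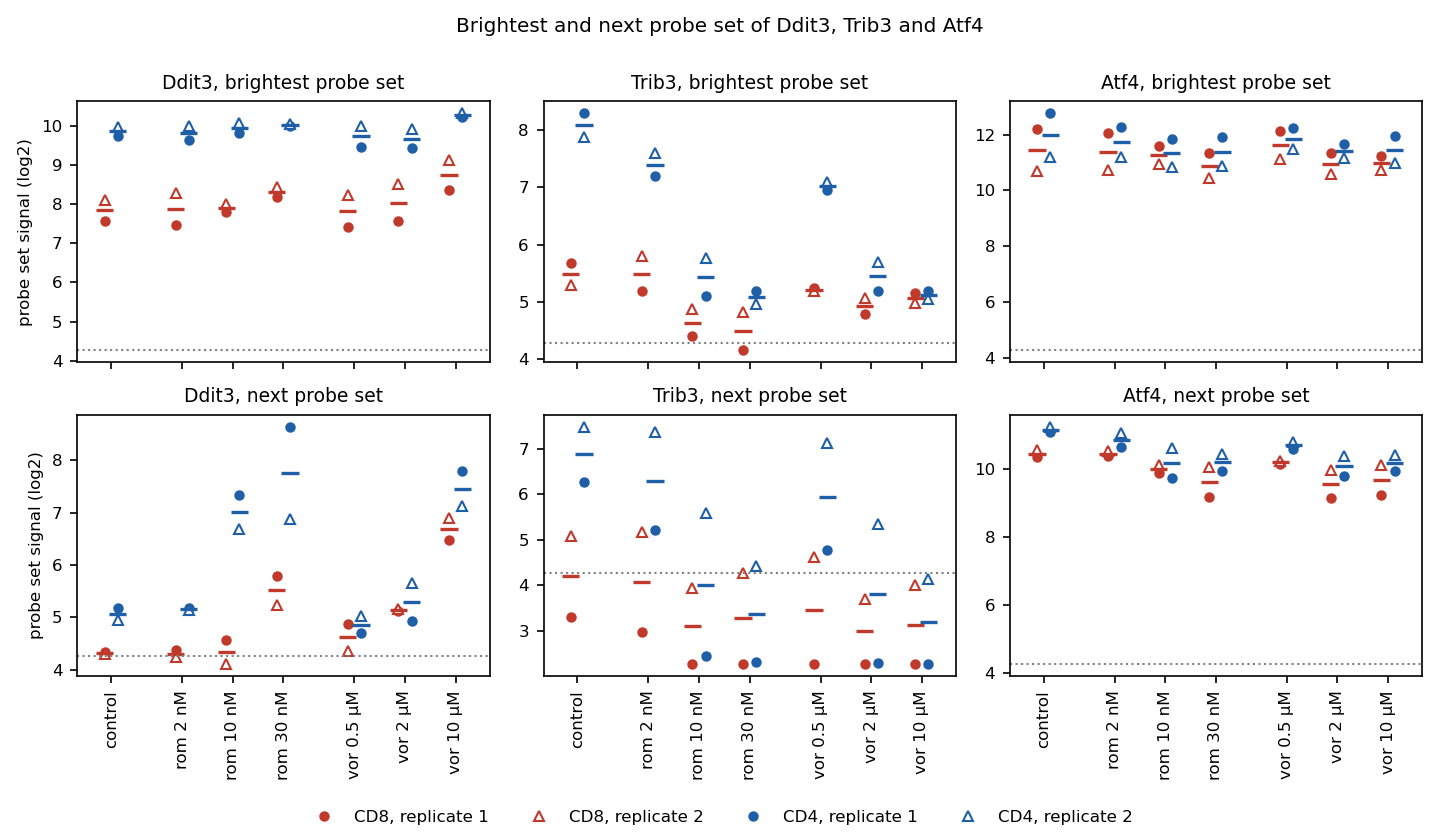
Log2 probe set signal (vertical axes) of the brightest (upper panels) and the next probe set (lower panels) of Ddit3, Trib3 and Atf4 in the control and at each dose of romidepsin (rom) and vorinostat (vor). Red is CD8, blue CD4, circles are replicate 1 arrays, triangles replicate 2 arrays, bars the means and the dotted line the detection level. The next Ddit3 probe set rises to 8.64 with romidepsin at 30 nM in CD4 cells, where the brightest one stays near 10.

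Other genes of the pathway were counted from lists of known ATF4 targets and partners. Of 11 tested genes of amino acid synthesis and one-carbon metabolism, 6 fell and 1 rose in CD4 cells with romidepsin at 30 nM, and 5 fell and 0 rose with vorinostat at 10 µM. In CD8 cells the counts were 3 lower and 1 higher with romidepsin at 30 nM, and 5 lower and 1 higher with vorinostat at 10 µM. The median difference of the list was -0.82, -0.74, -0.26 and -0.72 in these 4 comparisons, where the median of all tested genes was 0.07, 0.02, 0.02 and 0. Of all tested genes 7.91%, 7.10%, 2.93% and 8.50% were called lower in these comparisons, and 13.3%, 10.9%, 7.89% and 12.1% higher. Mthfd1l, a mitochondrial enzyme of folate metabolism, fell by 2.83 and 3.02 in CD4 cells (fitted differences -2.83 and -3.02, adjusted p = 0.000718 and 0.000524) and by 3.35 with vorinostat at 10 µM in CD8 cells (-3.35, adjusted p = 0.000222). Psph, the last enzyme of serine synthesis, fell in the same 3 groups (-1.01, -1.20 and -1.16, adjusted p = 0.00314, 0.0011 and 0.00131). With vorinostat at 10 µM in CD8 cells Phgdh, the first enzyme of serine synthesis, was lower too (-1.77, adjusted p = 0.00243) and Gpt2, a mitochondrial alanine aminotransferase, was higher (1.16, adjusted p = 0.00193). These calls held in every fit that left out 1 array, but those of Psph ended at equal array medians in all 3 groups, and that of Gpt2 ended at equal array medians and with the mean of its probe sets. Further calls of this list, at adjusted p of 0.00477 to 0.0458, each ended without 1 or more single arrays. Mthfd1l was lower in CD8 cells with romidepsin at 30 nM (-2.33, -3.06 to -1.60 over these fits) and vorinostat at 2 µM (-2.20), and in CD4 cells with romidepsin at 10 nM (-1.98). Phgdh was lower in CD4 cells with romidepsin at 30 nM (-1.37) and vorinostat at 10 µM (-1.62) and in CD8 cells with romidepsin at 30 nM (-1.18). Shmt2, the mitochondrial serine hydroxymethyltransferase, was lower in CD4 cells with romidepsin at 30 nM (-1.51) and vorinostat at 10 µM (-1.62) and in CD8 cells with vorinostat at 10 µM (-1.68), and all 3 calls ended with the mean of its probe sets. Psph was lower at romidepsin 10 nM (-0.795) and vorinostat 2 µM (-0.98) in CD4 cells and at romidepsin 30 nM (-0.79) and vorinostat 2 µM (-1.09) in CD8 cells, and Gpt2 was higher at romidepsin 30 nM in CD8 cells (1.10). Of all the calls of this list in the 4 top-dose comparisons, 2 of 7, 2 of 5, 0 of 4 and 4 of 6 held in every fit without 1 array.

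Of 7 tested amino acid transporters, Slc7a5, the leucine transporter LAT1, was the only one called at any dose. Of all tested genes 7.91% and 7.10% were called lower in CD4 cells at romidepsin 30 nM and vorinostat 10 µM. In CD8 cells at vorinostat 10 µM it was 8.50%, so 1 of 7 stood near the background at these doses. Slc7a5 itself changed as follows. It was lower in CD4 cells with romidepsin at 30 nM (-1.90 ± 0.37, adjusted p = 0.0015) and with vorinostat at 10 µM (-2.01 ± 0.37, adjusted p = 0.00121), and both calls held in every fit without 1 array. In CD8 cells it was lower with vorinostat at 10 µM (-1.18 ± 0.37, adjusted p = 0.0322), a call that held in 1 of 4 such fits, over a range of -1.52 to -0.84. At the middle doses it was lower in CD4 cells with romidepsin at 10 nM (-1.59, adjusted p = 0.0125) and vorinostat at 2 µM (-1.68, adjusted p = 0.033), each of which held in 1 of 4 such fits. Slc7a3, a cationic amino acid transporter, had differences of -3.14 and -3.17 in these groups without being called. Of 18 cytosolic aminoacyl-tRNA synthetases 0 were called at any dose by limma without the block, beside the shares of all genes given above. In CD4 cells 3 had an unadjusted p under 0.05 with romidepsin at 30 nM and 4 with vorinostat at 10 µM. Of all tested genes 31.5% and 29.6% had one there. With the block 10 fell and 5 rose, and 10 fell and 3 rose, in these 2 groups, where it called 63.7% and 61.2% of all genes. The list's median difference was -0.53 and -0.57 there.

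Upstream of ATF4, 11 eIF2α kinases, phosphatase subunits and eIF2B subunits were tested. In CD4 cells with romidepsin at 30 nM 1 was called higher and 1 lower, beside 13.3% and 7.91% of all genes, so the list stood near the background. Eif2b2 rose and Ppp1r15b fell there (0.84 and -0.77, adjusted p = 0.0103 and 0.0148). Eif2b2 encodes a subunit of eIF2B and Ppp1r15b a subunit that directs the eIF2α phosphatase. Neither call held in every fit without 1 array, over which Eif2b2 ranged from 0.66 to 1.02 and Ppp1r15b from -0.84 to -0.71, and both ended at equal array medians. Eif2b2 was also higher in CD4 cells with vorinostat at 10 µM (0.89, adjusted p = 0.00818) and Ppp1r15b lower in CD8 cells with vorinostat at 10 µM (-0.71, adjusted p = 0.0245), calls that held in 2 of 4 and 1 of 4 fits without 1 array. The median difference of this list was 0.16, against 0.07 over all tested genes. Of 18 genes of the other arms of the unfolded protein response, Ern1, which encodes the sensor IRE1α, rose in CD8 cells with romidepsin at 30 nM (1.67 ± 0.20, adjusted p = 5.4e-05) and vorinostat at 10 µM (1.78 ± 0.20, adjusted p = 1.7e-05). In CD4 cells it rose by 1.21 and 0.99 at the same doses (adjusted p = 0.000389 and 0.00225), and the call held in every fit without 1 array in all 4 groups. It ended at equal array medians in all 4 groups, and with quantile normalization in all but CD8 vorinostat 10 µM. At the middle doses Ern1 was higher in CD4 cells with romidepsin at 10 nM (1.10, adjusted p = 0.00213) and in CD8 cells with vorinostat at 2 µM (0.89, adjusted p = 0.0204), and both of these calls ended under the same 2 scalings. With Ern1 counted, 1 gene rose and 0 fell in CD8 cells with romidepsin at 30 nM, 3 rose and 1 fell with vorinostat at 10 µM, and in CD4 cells 1 rose and 2 fell with romidepsin at 30 nM and 1 rose and 1 fell with vorinostat at 10 µM. These counts of 18 stand beside backgrounds higher of 7.89%, 12.1%, 13.3% and 10.9% and lower of 2.93%, 8.50%, 7.91% and 7.10%. Xbp1, the factor whose messenger RNA IRE1α splices, fell in CD4 cells with romidepsin at 30 nM (-1.65, adjusted p = 0.00406, held in 3 of 4 fits without 1 array) and vorinostat at 10 µM (-1.54, adjusted p = 0.0073, held in 2 of 4). Edem1, which acts in the degradation of misfolded glycoproteins, fell in CD4 cells with romidepsin at 30 nM (-1.07, adjusted p = 0.0393) and in CD8 cells with vorinostat at 10 µM (-1.30, adjusted p = 0.0149), each held in 1 of 4. Syvn1, a ubiquitin ligase of that degradation, and Hyou1, a chaperone of the endoplasmic reticulum, rose in CD8 cells with vorinostat at 10 µM (1.14 and 0.65, adjusted p = 0.0175 and 0.00687), each held in 2 of 4. The calls of Edem1, Syvn1 and Hyou1 also ended with quantile normalization and at equal array medians.

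Among 8 tested relatives and partners of the members, Eif4ebp1, a repressor of cap-dependent translation and an ATF4 target, fell in CD4 cells at romidepsin 30 nM (-1.59 ± 0.25, adjusted p = 0.000236) and vorinostat 10 µM (-1.74 ± 0.25, adjusted p = 0.000172), in every fit without 1 array. It was lower too in CD4 cells at romidepsin 10 nM (-1.07, adjusted p = 0.0118, held in 2 of 4 such fits) and in CD8 cells at vorinostat 10 µM (-0.77, adjusted p = 0.0367, held in 1 of 4). Cebpg, a bZIP partner of ATF4, was lower in CD4 cells at romidepsin 30 nM (-1.23, adjusted p = 0.0129) and vorinostat 10 µM (-1.21, adjusted p = 0.0167) and in CD8 cells at vorinostat 10 µM (-1.03, adjusted p = 0.0352), each held in 1 of 4. Cebpb, Trib1, Chac2, Sesn1 and Sesn3 were called in none of the 4 top-dose comparisons without the block, with CD4 differences at romidepsin 30 nM of -1.60, -1.21, 0.49, 0.41 and 0.92 in that order. In CD4 cells 2 of the 8 were called at each top dose, both lower, beside 7.91% and 7.10% of all genes called lower. In CD8 cells 1 was called at romidepsin 30 nM, beside 7.89% of all genes higher and 2.93% lower. At vorinostat 10 µM in CD8 cells 3 were called, beside 12.1% higher and 8.50% lower. Trib2, a paralog of Trib3, rose in CD8 cells. It averaged 8.82 with romidepsin at 30 nM and 8.49 with vorinostat at 10 µM, against 6.31 in the CD8 control (2.51 ± 0.75 and 2.18 ± 0.75, adjusted p = 0.0403 and 0.0489). Both calls ended without either drug array and without the replicate 1 control array, over a range of 1.83 to 3.19 at romidepsin 30 nM and 1.503 to 2.86 at vorinostat 10 µM, and with no filter on low signals.

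**Figure D5:**
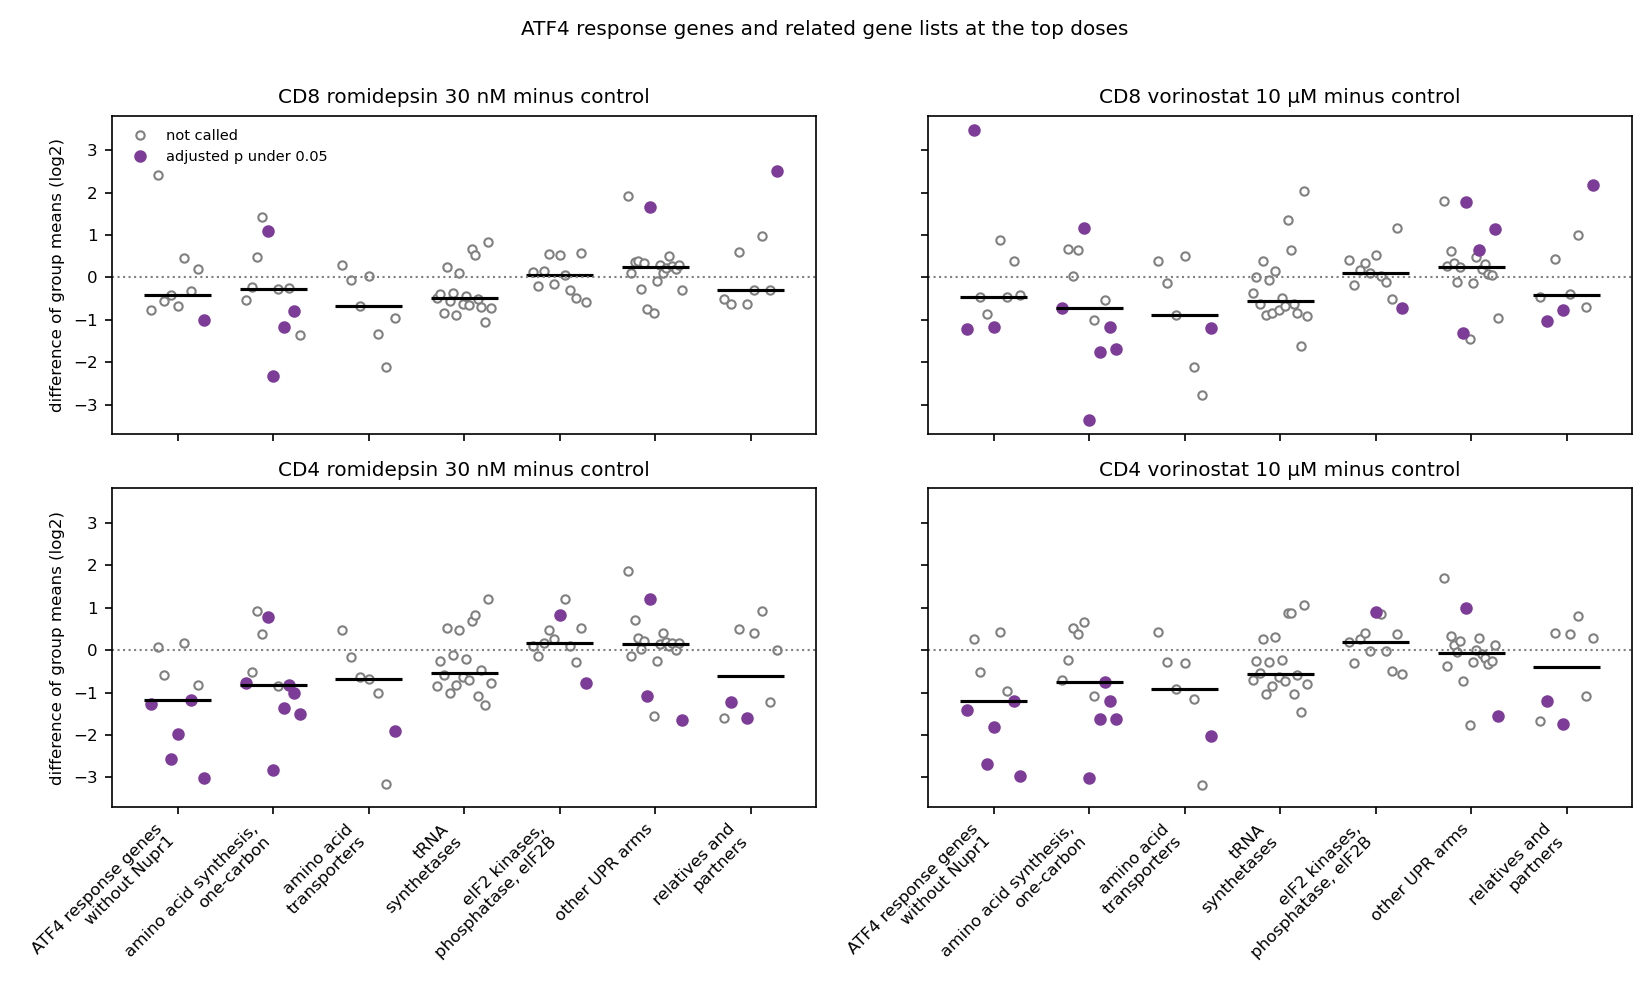
Fitted log2 difference between drug and control (vertical axes) of the 9 genes other than Nupr1 and of the genes of 6 related lists, at the top doses in CD8 (upper panels) and CD4 cells (lower panels). Each circle is a gene, filled where its adjusted p was under 0.05, and the bar is the list's median. The medians of the 9 genes are -1.17 and -1.20 in the CD4 panels, and the eIF2 list has medians close to 0 in all 4.

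The pattern of Trib3, Chac1 and Atf5 over the arrays was compared with every tested gene, as the Pearson correlation with the mean of their z-scores over 28 arrays after the mean of each cell type and replicate number was taken away. Of the other members, Nupr1 had r = 0.91, Ddit4 0.79, Asns 0.78, Atf4 0.69 and Sesn2 0.65, while Atf3 had -0.34 and Ddit3 -0.41. The genes outside the list with the highest values were Slc39a4 (0.96), a zinc transporter, Hdlbp (0.96), an RNA-binding protein, Gys1 (0.96), the muscle-type glycogen synthase, Rab4b (0.95), an endosomal GTPase, Arhgef39 (0.95), an exchange factor, and Wwp2 (0.94), a ubiquitin ligase. These correlations are descriptions over arrays that share drug, dose and control.

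Stc2 and Vldlr, which are known to respond to ATF4 and were already seen to fall in these arrays, are described without a test. Stc2, a secreted glycoprotein, was at 3.47 and 4.499 with romidepsin at 30 nM and at 3.52 and 3.30 with vorinostat at 10 µM in CD4 cells, against 8.39 and 7.80 in the control. In CD8 cells it was at 3.32 and 3.32 and at 3.44 and 3.21, against 3.93 and 5.40. Vldlr, a lipoprotein receptor, was at 4.49 and 4.20 and at 4.88 and 4.98 in CD4 cells at these doses, against 10.61 and 8.18 in the control, and in CD8 cells at 4.11 and 5.01 and at 3.13 and 4.02, against 7.53 and 6.10. Vldlr therefore stood far under its control in both cell types, whereas Stc2 was detected in a single CD8 control array.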

How the data were processed

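RNA from 28 samples, 14 groups of 2, was measured on the Mouse430_2 array. The deposited table gives 45101 probe sets that the authors normalized with GCRMA, per the submitters' processing notes. Its version and the base of the logarithm are not given in the sources used here, and the deposited values were read as log2 from their range. Probe sets were named by the platform annotation in use for the array: 34958 name 1 gene, 932 several and 9211 none, and the last 2 kinds were left out. Each gene was represented by its brightest probe set. GCRMA pulls dim probe sets to a common floor, which flattens differences near it.

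The members, the related gene lists and the rule for naming genes were chosen with earlier results of these data known. All 10 members were named, with up to 4 called genes of largest change per list and comparison at the middle and top doses, and all relatives and partners. Likeness named the 6 genes with the highest correlation.

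The 14 group means were fitted with limma 3.58.1 (R 4.3.3) and empirical Bayes, and all p-values are limma's, adjusted over 9872 genes per comparison. The 27 comparisons are 12 of drug with control, 8 of neighbouring doses, 6 of CD8 with CD4 responses and 1 of the controls. Same-numbered arrays deviated together from their group means (r 0.762 to 0.958 over 84 pairs within a cell type and 0.722 to 0.859 over 98 across). The number goes with the sex read from Eif2s3y and Xist, and the labels do not say what else it shares. The replicate block was therefore run as the second fit. The 2 arrays per group limit precision: the median 95% interval of a drug difference reached 0.975 to either side, and 0.353 with the block. Alternatives were the block, quantile normalization, equal array medians, no filter on low signals, the mean of a gene's probe sets, arrays of 1 cell type only, each array left out in turn and, added after seeing the data, the next brightest probe set.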

Additional observations from a re-analysis of the deposited data

Results flagged for a closer look

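The CD8 and CD4 responses of Trib3 differed by the direct test at both top doses, in calls that depended on the processing and on single arrays. The fitted CD8 minus CD4 difference of Nupr1 was 3.5381 at romidepsin 10 nM, 3.1633 at romidepsin 30 nM and 3.1998 at vorinostat 10 µM. Nupr1 was under the detection level in every CD8 array, so these values carry the CD4 change alone, and no difference between the responses was tested for it. The difference of Trib3 was 2.013 at romidepsin 30 nM and 2.5483 at vorinostat 10 µM, with limma adjusted p of 0.0295 and 0.00908. Trib3 in CD8 cells started at 5.68 and 5.29, close to where it ended in CD4 cells. A fall as large as in CD4 cells would have ended under the detection level there. The test therefore cannot tell a smaller CD8 response from a fall too deep to measure.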

How the results depend on the processing

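The counts here include Nupr1, which the counts of the results leave out and whose calls are no test. Shares of all genes called are given in the results, for the fit without the block and for the block. With the replicate block the number of members called was 1 at romidepsin 2 nM, 7 at romidepsin 10 nM and 3 at vorinostat 2 µM in CD4 cells, and 2, 5, 3 and 5 at romidepsin 10 nM, romidepsin 30 nM, vorinostat 2 µM and vorinostat 10 µM in CD8 cells. The dose steps then gave 6 (CD4 romidepsin 10 minus 2 nM), 1 (CD4 vorinostat 10 minus 2 µM), 1 (CD8 romidepsin 30 minus 10 nM), 2 (CD8 vorinostat 2 minus 0.5 µM) and 3 (CD8 vorinostat 10 minus 2 µM). The response differences gave 4, 5, 1 and 5 at romidepsin 10 nM, romidepsin 30 nM, vorinostat 2 µM and vorinostat 10 µM. Without Nupr1 they gave 3, 4, 1 and 4, beside 8.40%, 17.6%, 1.45% and 10.7% of all genes. Pairing by replicate number ended no call of a single member. With the mean of a gene's probe sets the count was 1 at CD4 vorinostat 2 µM, in the vorinostat 10 minus 2 µM step of both cell types and in the vorinostat 10 µM response difference. Quantile normalization left 0 at CD8 romidepsin 30 nM, 1 at CD8 vorinostat 2 µM, 1 in the CD8 vorinostat 10 minus 2 µM step and 0 in the vorinostat 10 µM response difference. Equal array medians, which moved the median of all genes by -0.335 to 0.109, left 0 at CD8 romidepsin 30 nM, 1 at CD8 vorinostat 10 µM, 0 in the response differences at romidepsin 10 nM, 30 nM and vorinostat 10 µM, and 4 between the controls. The next brightest probe set, which only 6 members have, left 0 at CD8 romidepsin 30 nM, 1 in the CD4 vorinostat 10 minus 2 µM step and 0 in the same 3 response differences. With arrays of 1 cell type only, CD8 romidepsin 30 nM had 0 and CD8 vorinostat 10 µM had 1. The cause of these moves was not tested.

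On leaving out 1 array in turn the counts ranged from 3 to 4 at CD4 romidepsin 10 nM, from 4 to 6 at CD4 romidepsin 30 nM and vorinostat 10 µM, from 0 to 2 at CD8 romidepsin 30 nM, from 1 to 3 at CD8 vorinostat 10 µM, from 1 to 4 in the CD4 step from 2 to 10 nM romidepsin, from 1 to 1, 1 to 2 and 1 to 2 in the response differences at romidepsin 10 nM, 30 nM and vorinostat 10 µM, and from 5 to 6 between the controls. Nupr1 is in these ranges too, and it was the only member called in the response difference at romidepsin 10 nM. It was undetected in every CD8 array, so its calls there are no test of the responses. No called member changed sign under any alternative run. Signals near the floor, such as those of Nupr1 in CD8 cells, limit what can be seen to fall.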
